A study of Mus musculus with 6 samples.

Results

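Hepatocyte plasma protein genes encode the proteins that liver cells release into blood, and the set described here also holds 6 enzymes and 1 bile acid transporter of hepatocytes. Of the 39 genes listed, 38 were measured by a probe set annotated to exactly 1 gene, among 19938 genes measured in all. C5 is carried under its mouse symbol Hc, and C3 was not analysed here. Where a gene had several probe sets, the one kept was chosen by its mean level over the 6 arrays. This was so for 999 genes, and among the members only for Fga. The members were selected on their known liver function at a time when differences of liver genes between these arrays were already known, so the differences between single arrays are a description with no test.

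The 6 arrays (Affymetrix Mouse Gene 1.0) measured total RNA of epithelial cells isolated from mouse small intestine at E18.5, shortly before birth, 3 from control mice and 3 from mice labelled as Gata4Gata6 double conditional knockout (cKO), called cKO 1 to 3 after that label. GATA4 and GATA6 are transcription factors of the gut epithelium. The sources used here give neither the Cre driver, the deleted exons, the strain nor the litters. Since they also leave unstated whether each array held the RNA of its own mouse, p-values measure the spread among these arrays only, and that spread may be technical. Gata4 read 10.95, 10.93 and 10.96 on the control arrays and 11.34, 11.39 and 11.51 on the arrays labelled cKO, and Gata6 read 12.23, 12.28 and 12.27 against 12.72, 12.69 and 12.72. The targeted transcripts were thus not lower under the cKO label, whether the probes lie in the deleted parts was not tested, and every direction given here rests on that label. All levels are the deposited values, read as log2, and are given in the order control 1, control 2, control 3, cKO 1, cKO 2 and cKO 3. The labelled tissue was borne out by its markers: 12 gut epithelium genes, among them Epcam, Vil1 and Cdx2, had mean levels of 12.02 to 12.25 on the 6 arrays.

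Hepatocytes make most of the protein of blood plasma, including albumin, clotting factors, complement and protease inhibitors. Before birth the liver is also a site of blood formation, so fetal liver holds hepatocytes beside developing red cells, white cells and megakaryocytes. Liver genes of this kind are classically driven by the factors HNF1, HNF4 and C/EBP at short promoters. Some of them are not liver-only: fetal gut epithelium also makes alpha-fetoprotein, and carbamoyl phosphate synthetase works in enterocytes as well as in liver.

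The promoters of 2 gene neighbourhoods are shown, whose members lie side by side and moved to different degrees between arrays. The same holds for Itih3 with Itih1 and for C8b with C8a, whose promoters are not shown. Alb and Afp are adjacent on chromosome 5, and the 3 fibrinogen chain genes Fgg, Fga and Fgb are adjacent on chromosome 3, with no protein-coding gene between neighbours. Each sequence is the RefSeq window of build GRCm38.p6 from 250 bases before to 50 bases after the gene start, read 5′ to 3′ on the gene's strand, with capitals at matches to an HNF1 motif (GTTAATNAT), a C/EBP motif (TTGCNNAA) or a TATA box (TATAAA). The windows lie at chr5:90460620-90460919 on the plus strand for Alb, chr5:90490464-90490763 on the plus strand for Afp, chr3:83007474-83007773 on the plus strand for Fgg, chr3:83025903-83026202 on the plus strand for Fga and chr3:83049814-83050113 on the minus strand for Fgb.
Alb: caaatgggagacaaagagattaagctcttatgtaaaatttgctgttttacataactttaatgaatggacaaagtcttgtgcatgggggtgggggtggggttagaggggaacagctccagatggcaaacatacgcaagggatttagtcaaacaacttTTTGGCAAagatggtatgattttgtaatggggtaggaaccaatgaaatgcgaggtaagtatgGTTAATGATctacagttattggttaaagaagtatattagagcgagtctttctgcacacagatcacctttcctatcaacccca
Afp: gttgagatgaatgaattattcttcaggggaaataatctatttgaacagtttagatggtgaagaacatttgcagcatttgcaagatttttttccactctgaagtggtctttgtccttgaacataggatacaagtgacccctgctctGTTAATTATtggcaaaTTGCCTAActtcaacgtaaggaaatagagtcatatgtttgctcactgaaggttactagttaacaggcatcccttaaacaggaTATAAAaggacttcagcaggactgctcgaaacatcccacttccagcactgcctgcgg
Fgg: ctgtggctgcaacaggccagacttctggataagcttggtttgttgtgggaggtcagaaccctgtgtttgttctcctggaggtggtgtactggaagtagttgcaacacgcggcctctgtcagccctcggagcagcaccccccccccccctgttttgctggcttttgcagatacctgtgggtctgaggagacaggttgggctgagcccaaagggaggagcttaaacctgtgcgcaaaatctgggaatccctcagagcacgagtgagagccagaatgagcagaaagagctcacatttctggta
Fga: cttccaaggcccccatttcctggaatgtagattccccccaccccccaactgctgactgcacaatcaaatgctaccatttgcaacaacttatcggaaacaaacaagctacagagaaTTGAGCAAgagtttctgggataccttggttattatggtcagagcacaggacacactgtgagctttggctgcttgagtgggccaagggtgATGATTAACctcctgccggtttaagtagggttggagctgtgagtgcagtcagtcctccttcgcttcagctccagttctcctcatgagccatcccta
Fgb: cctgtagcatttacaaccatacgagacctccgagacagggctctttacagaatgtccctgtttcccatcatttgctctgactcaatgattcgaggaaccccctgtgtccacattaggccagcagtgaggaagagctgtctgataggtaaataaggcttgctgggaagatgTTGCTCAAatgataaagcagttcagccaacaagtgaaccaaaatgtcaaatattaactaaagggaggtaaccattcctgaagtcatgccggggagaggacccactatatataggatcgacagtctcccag

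The HNF1 motif began 32 bases before the start in Alb, 105 in Afp and 46 in Fga. The C/EBP motif began 94 bases before the start in Alb, 89 in Afp, 135 in Fga and 80 in Fgb, and Afp also had TATAAA 7 bases before it. The Fgg window held no match, and no matches overlapped in these 5 windows. Windows were found for 30 of the 38 members, and those of A2m, Cps1, Hp, Kng1, Mat1a, Plg, Trf and Ttr were not used here. On either strand, the HNF1 motif lay in 4 of 30 members (Afp, Alb, Fga and Hc) against 0.94% of 27025 genes. The C/EBP motif lay in 15 of 30 (50%) against 12.2%, TATAAA in 8 of 30 (26.7%) against 15.7%, and a GATA motif (AGATAA) in 5 of 30 (16.7%) against 12.7%. An HNF4 motif (CAAAGTCCA) was in 0 of 30 against 0.555%. These are letter matches in short windows and describe no binding, and their bearing on differences between arrays was not tested.

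Taken array by array, the members were highest on cKO 2, next on control 3, and then on control 1. Their mean level was 8.58, 7.79 and 9.82 on the control arrays and 7.90, 11.72 and 7.86 on the arrays labelled cKO. The array cKO 2 was the highest of the 6 for 35 of 38 members, where it was for 4248 of all 19938 genes. The exceptions among the members were F10, Cps1 and Tdo2. Within each group the arrays therefore did not form a tight cluster, while the medians over all 19938 genes were 8.19, 8.19, 8.19, 8.22, 8.33 and 8.18.

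The difference of cKO 2 from the mean of cKO 1 and cKO 3 had a median of 3.89 over the members, with a range of -0.02 to 7.66, against a median of 0.00 over all genes. It was at least 2-fold for 33 of 38 members, where 3.52% of all genes passed that size. Control 3 exceeded control 2 by a median of 1.77, by at least 2-fold in 26 of 38 members, where 0.823% of all genes did. Control 1 exceeded control 2 by a median of 0.49, by at least 2-fold in 7 of 38 members (Alb, Ahsg, Fgg, Kng1, Uox, Slc10a1 and Vtn), where 0.637% of all genes did. The arrays cKO 1 and cKO 3 had a median difference of -0.04 over the members. They were within 0.5 of each other for 33 of 38 members and for 18793 of all 19938 genes, so this closeness was not particular to the members. On cKO 3, 0 members were at least 2-fold higher, where 50 of all genes were. The members furthest below cKO 1 there were Serpina1c (-0.98) and Itih3 (-0.80). Control 3 was above control 1 for 37 of 38 members.

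**Figure D1:**
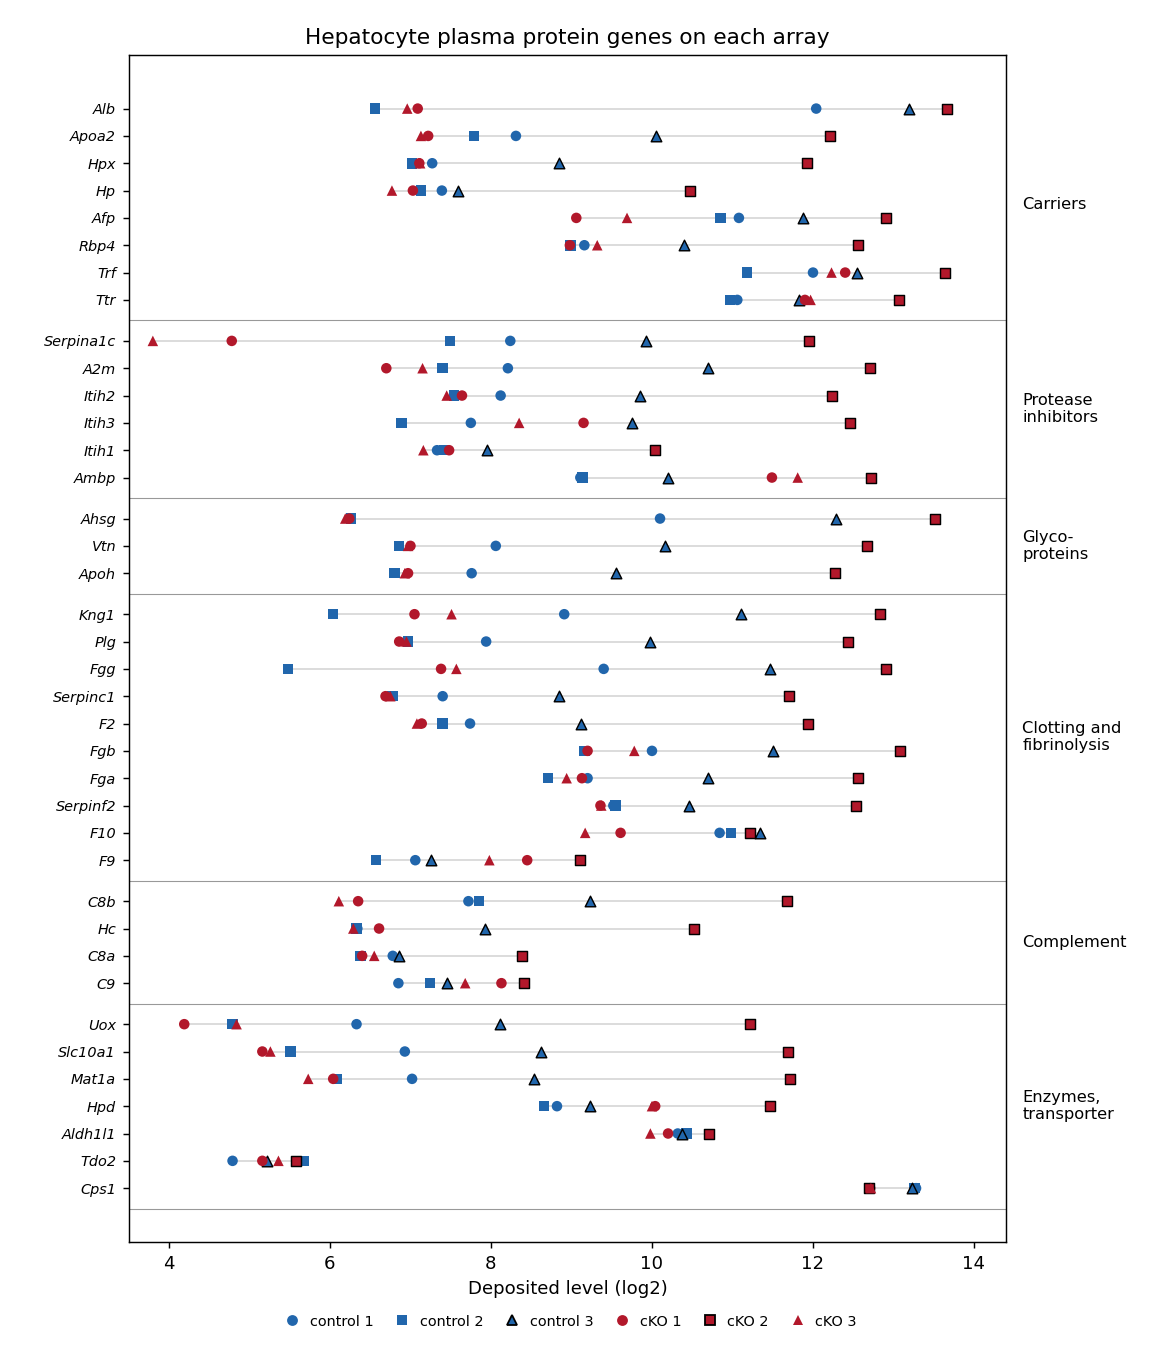
Deposited log2 level (horizontal axis) of each of the 38 hepatocyte plasma protein genes (vertical axis, grouped by role) on the 6 arrays, with one symbol per array and a grey line over the range. The black-edged cKO 2 square is the rightmost symbol for 35 genes, and the black-edged control 3 triangle is usually next.

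Members stood among the largest differences both on cKO 2 and on control 3. Of the 10 genes of all 19938 with the largest difference on cKO 2, 9 were members, and of the 100 largest, 25 were members. Between control 3 and control 2, 5 of the 10 largest and 24 of the 100 largest were members. Between control 1 and control 2, 4 of the 10 largest were members, but only 7 of the 100 largest. Across the 38 members, the cKO 2 difference and the difference of control 3 from control 2, which share no array, had a Pearson r of 0.78 and a Spearman rho of 0.89. The points share a probe set design and the normalization between arrays, and genes are not independent replicates. The members were chosen when differences of liver genes between these arrays were already known. These counts and correlations are therefore a description of that choice and carry no weight of their own.

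**Figure D2:**
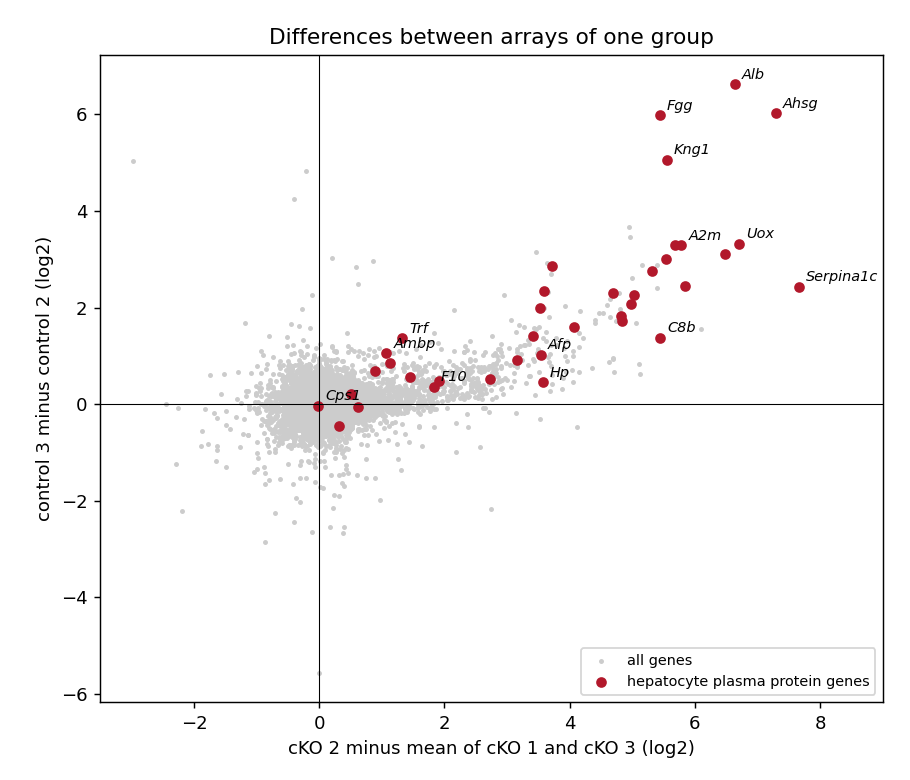
Difference of cKO 2 from the mean of cKO 1 and cKO 3 (horizontal axis, log2) against the difference of control 3 from control 2 (vertical axis, log2) for all 19938 genes in grey and the 38 members in red, some of them named. Most members lie in the upper right, out to Serpina1c at 7.66 on the horizontal axis and Alb at 6.63 on the vertical axis, and Cps1 lies near the origin.

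On a linear scale the extra signal can be set against that of cKO 2. For the 33 members at least 2-fold higher on cKO 2, the excess of control 3 over control 2 was a median of 15.2% of the excess of cKO 2 over control 2, with quartiles of 10.7% and 24.8%. That of control 1 was a median of 2.13%, with quartiles of 1.19% and 3.25%. Alb stood at 72.0% for control 3. F10 was the extreme of both, at 157% for control 3 and -51.1% for control 1, since its control 2 and cKO 2 levels were close. The excess of cKO 2 over control 2 crosses the groups, so it also holds any difference between them, as for Ambp. Array signal flattens near its top, and the effect of that on these percentages was not tested.

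Among the carriers, cKO 2 was the highest array for all 8 members, and the median cKO 2 difference was 3.55. Alb, which encodes albumin, the most abundant plasma protein, read 12.04, 6.56, 13.19, 7.09, 13.66 and 6.96. It was high on control 1, control 3 and cKO 2 and low on the other 3 arrays, so the groups overlapped, and the steps were 99.4-fold on cKO 2, 99.0-fold between control 3 and control 2 and 44.6-fold between control 1 and control 2. Afp, which encodes alpha-fetoprotein, the fetal counterpart of albumin, read 11.08, 10.85, 11.87, 9.06, 12.91 and 9.69. Afp also peaked on cKO 2 and then control 3, but control 2 was above cKO 1 and cKO 3, unlike for its neighbour Alb. Ttr, which encodes transthyretin, a carrier of thyroid hormone and of the retinol-binding protein, read 11.06, 10.97, 11.83, 11.90, 13.07 and 11.97. For Ttr all 3 arrays labelled cKO were above all 3 controls, and cKO 1 exceeded control 3 by only a small margin.

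The other 5 carriers were Trf, which carries iron, Rbp4, which carries retinol, Apoa2, an apolipoprotein of HDL, Hpx, which binds heme, and Hp, which binds free hemoglobin. Their cKO 2 differences ran from 1.32 for Trf to 5.04 for Apoa2, and their differences of control 3 from control 2 ran from 0.46 for Hp to 2.26 for Apoa2. All 5 had overlapping groups.

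Protease inhibitors included the largest cKO 2 difference and 1 of the clearest group differences. Serpina1c, a member of the alpha-1-antitrypsin family that inhibits neutrophil elastase, read 8.24, 7.49, 9.92, 4.78, 11.95 and 3.80. The array cKO 2 was thus 202-fold above the mean of cKO 1 and cKO 3, and those 2 arrays were below all controls. That fold rests on low levels, of which the 3.80 on cKO 3 was the lowest of any member, and low levels may be background. The genes Serpina1a to Serpina1e are near-identical copies, and 2 probe sets that are annotated to all 5 of them read 10.47, 10.23, 11.61, 10.48, 12.90 and 10.65, and 10.65, 10.40, 11.78, 10.81, 13.17 and 11.10. Those shared sets also peaked on cKO 2, but cKO 1 and cKO 3 were not below the controls there, so the low values of Serpina1c on these arrays are uncertain for the family. Ambp, the precursor of alpha-1-microglobulin and bikunin, read 9.11, 9.14, 10.20, 11.49, 12.72 and 11.81. All 3 arrays labelled cKO exceeded all controls for Ambp, and its cKO 2 difference of 1.07 was the smallest of the 6 inhibitors. A2m, a broad protease trap, and Itih1, Itih2 and Itih3, the heavy chains that are linked to bikunin, had cKO 2 differences of 2.72 to 5.79. Their groups overlapped.

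The plasma glycoproteins had the largest median cKO 2 difference of the 6 role groups, 5.69. Ahsg, which encodes fetuin-A, an inhibitor of calcium phosphate deposition, read 10.10, 6.26, 12.29, 6.24, 13.51 and 6.19. As for Alb, 3 arrays were high (control 1, control 3 and cKO 2), and the remaining 3 lay within 0.1 of each other. Apoh, which encodes a phospholipid-binding glycoprotein, read 7.76, 6.80, 9.55, 6.97, 12.27 and 6.93, with cKO 2 highest, control 3 next and control 1 after it. Vtn, the cell-adhesion protein vitronectin, had a cKO 2 difference of 5.69 and followed the same order of arrays.

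Clotting and fibrinolysis genes had a median cKO 2 difference of 4.21 over 10 members. Fgg, the fibrinogen gamma chain, read 9.40, 5.48, 11.46, 7.38, 12.91 and 7.57. Its neighbour Fga, the alpha chain, read 9.20, 8.71, 10.70, 9.13, 12.56 and 8.94, and Fgb, the beta chain, read 10, 9.16, 11.50, 9.20, 13.08 and 9.78. All 3 chains peaked on cKO 2 and then control 3, while control 2 was lowest for each, with the deepest drop for Fgg. These 3 were named with their values known, because their promoters are shown. A further probe set of Fga read 8.19, 8.08, 9.53, 8.35, 11.86 and 8.35, with the same highest arrays.

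Kng1, the precursor of kinins, had the largest cKO 2 difference of this group, 5.55, and read 8.91, 6.04, 11.10, 7.05, 12.83 and 7.51. It was highest on cKO 2, then control 3 and control 1. F9, clotting factor IX, had the smallest, 0.88, and read 7.06, 6.57, 7.26, 8.45, 9.10 and 7.98, with every array labelled cKO above every control. F10, clotting factor X, read 10.84, 10.98, 11.34, 9.61, 11.22 and 9.17. Its highest array was control 3, and cKO 1 and cKO 3 lay below all controls. The remaining 4, prothrombin (F2), plasminogen (Plg), antithrombin (Serpinc1) and the plasmin inhibitor (Serpinf2), had cKO 2 differences of 3.17 to 5.53 with overlapping groups.

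Complement genes split by member. C8b, the beta subunit of C8 in the membrane attack complex, read 7.72, 7.85, 9.23, 6.35, 11.68 and 6.11, with cKO 2 and control 3 highest and cKO 1 and cKO 3 below all controls. C9, which forms the pore of that complex, read 6.85, 7.24, 7.46, 8.13, 8.41 and 7.68, with all arrays labelled cKO above all controls and a cKO 2 difference of only 0.50. C8a, the neighbour of C8b, and Hc, which encodes C5, had cKO 2 differences of 1.91 and 4.07, with overlapping groups.

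Enzymes and the transporter were the most mixed group. Uox, urate oxidase, had their largest cKO 2 difference, 6.71, and read 6.33, 4.79, 8.11, 4.19, 11.22 and 4.84. The bile acid transporter Slc10a1 and Mat1a, which makes S-adenosylmethionine, had cKO 2 differences of 6.48 and 5.83, and like Uox they overlapped between groups. Hpd, of tyrosine breakdown, read 8.82, 8.66, 9.23, 10.04, 11.47 and 10, with each array labelled cKO above each control.

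Cps1, carbamoyl phosphate synthetase, which makes the first intermediate of the urea cycle and of citrulline, read 13.28, 13.26, 13.23, 12.71, 12.70 and 12.72. Its groups were far apart for their spread, and control 1, control 3 and cKO 2 were not high. Tdo2, which opens tryptophan breakdown, read 4.79, 5.68, 5.22, 5.16, 5.58 and 5.36, and its highest array was control 2. Aldh1l1, a folate enzyme, read 10.32, 10.43, 10.37, 10.20, 10.71 and 9.98, with cKO 2 highest by a cKO 2 difference of 0.62. These 3 did not follow the order of arrays seen for most members.

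Between the groups, with limma over all 19938 genes and Benjamini-Hochberg adjustment, 3 of 38 members passed an adjusted p of 0.05, where 12.9% of all genes passed. Ambp and F9 rose (2 members, 5.52% of all genes) and Cps1 fell (1 member, 7.42% of all genes). The members' share was no larger than that of all genes and is no result about them as a set. Changes were above 0 for 30 of 38, where 46.8% of all genes were, with a median of 0.55 against -0.01 over all genes. An unadjusted p below 0.05 was found for 6 of 38, where 26.6% of all genes had one. Groups did not overlap for 5 members that were higher under the cKO label (Ttr, Ambp, F9, C9 and Hpd), where 14.3% of all genes did this, and for 1 that was lower (Cps1), where 18.3% did.

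Ambp had the largest change that passed, a rise of 2.52 ± 0.41 (SE, n = 3 per group) or 5.75-fold, from 9.48 ± 0.621 to 12.01 ± 0.638 (SD, n = 3), with an adjusted p of 0.0106. It passed under all 17 alternatives, with adjusted p from 0.00188 to 0.0482. F9 rose by 1.55 ± 0.31 (SE), 2.92-fold, from 6.96 ± 0.355 to 8.51 ± 0.562 (SD, n = 3), with an adjusted p of 0.0225. The call of F9 was lost without control 1 (adjusted p = 0.0706), control 2 (0.0785), control 3 (0.0522) or cKO 1 (0.0613), and with a replicate block (0.0927). F9 was not among the genes above the median level, and over its 16 alternatives the adjusted p ran from 0.00178 to 0.0927. Cps1 fell by 0.55 ± 0.064 (SE), 1.46-fold, from 13.26 ± 0.0252 to 12.71 ± 0.0100 (SD, n = 3), with an adjusted p of 0.00331, and passed under all 17 alternatives (adjusted p 0.000167 to 0.0328).

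The other members did not pass. Hpd was 3.03-fold higher (1.60 ± 0.41 SE, adjusted p = 0.0516) and C9 was 1.85-fold higher (0.89 ± 0.23, adjusted p = 0.0518), just outside the threshold. Alb differed by -1.36 ± 2.37 with an adjusted p of 0.772, and Ahsg by -0.90 ± 2.37 with 0.853, with errors larger than the differences and high arrays in both groups. The median change of the members changed sign when cKO 2 was left out (-0.84), or control 3 and cKO 2 together (-0.29).

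Without control 3 and cKO 2, that is with 2 arrays a group, 9 members passed. Ambp, F9, Hpd and Ttr were higher (4 members, 3.55% of all genes) and Serpina1c, Afp, C8b, F10 and Cps1 were lower (5 members, 4.4% of all genes). These 2 arrays were left out because they were known to be high for liver genes, so the counts describe what remains and carry no weight of their own. Changes were then below 0 for 26 of 38 members, where they were for 10883 of all 19938 genes.

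Serpina1c differed by -3.58 ± 0.40 (SE) without those arrays, with an adjusted p of 0.00992, but by -1.71 ± 2.10 with all 6. With log2(value + 32) and all 6 arrays it differed by -0.90. Its adjusted p ran from 0.00115 to 0.969 over its 16 alternatives. Afp differed by -1.59 ± 0.23 (adjusted p = 0.0206) against -0.71 ± 0.97 with all 6 (0.705), and its adjusted p ran from 0.00469 to 0.987. For C8b the values were -1.56 ± 0.13 (0.00473) and -0.22 ± 1.48 (0.947), with a range of 0.00462 to 0.993 over its 16 alternatives. These 3, like F10, were below all controls on cKO 1 and cKO 3 and were raised on cKO 2.

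F10 differed by -1.52 ± 0.17 without the pair (adjusted p = 0.0102), against -1.05 ± 0.51 with all 6 (0.254), in a range of 0.00174 to 0.486. Hpd was higher by 1.28 ± 0.11 (adjusted p = 0.00489, range 0.000445 to 0.158), and Ttr by 0.92 ± 0.10 (0.00885, range 0.00885 to 0.322). For Ambp and Cps1 the change stayed near its value with all arrays, at 2.53 and -0.56 (adjusted p 0.00188 and 0.0300), and F9 was at 1.40 (0.0299). With cKO 2 alone left out, 8 members passed, the same apart from Ttr, where 11.4% of all genes passed.

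**Figure D3:**
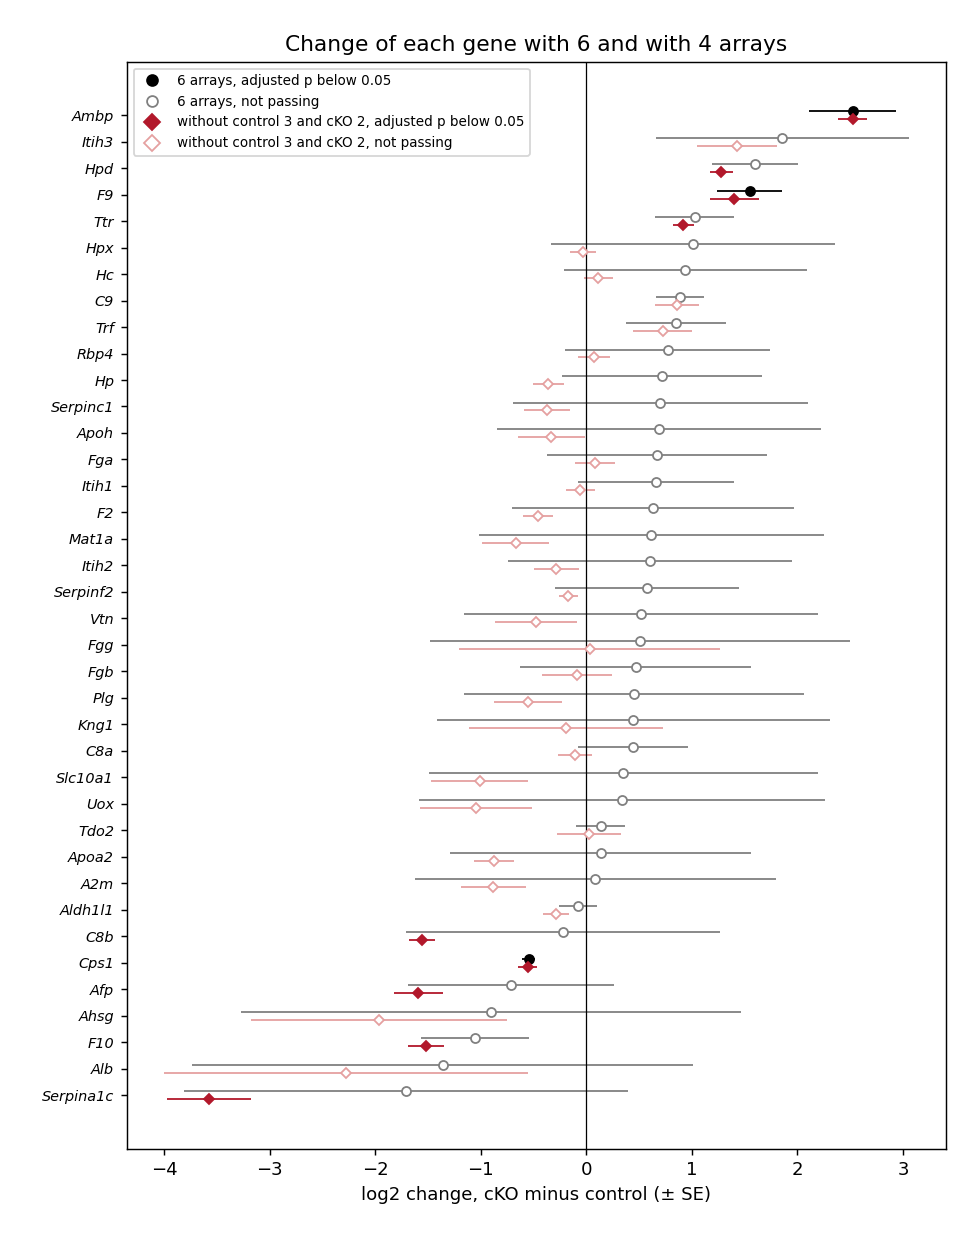
Log2 change, cKO minus control, with its standard error (horizontal axis) of each member (vertical axis) in the fit to all 6 arrays (circles) and in the fit without control 3 and cKO 2 (diamonds), filled where the adjusted p was below 0.05. With 6 arrays Ambp, F9 and Cps1 are filled, and with 4 arrays 9 members are, of which Serpina1c lies farthest left at -3.58.

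A separate list of 55 other hepatocyte genes, 47 of them measured, also had its highest mean level on cKO 2, then control 3 and control 1. That mean was 7.52, 7.40, 7.97, 7.24, 9.62 and 7.23. The array cKO 2 was the highest for 43 of 47, where it was for 4248 of all 19938 genes, and the median cKO 2 difference was 2.54. The steps among controls were smaller than for the members. Control 3 exceeded control 2 by a median of 0.37, at least 2-fold in 9 of 47 (0.823% of all genes). Control 1 exceeded control 2 by a median of only 0.06, at least 2-fold in 2 of 47 (0.637% of all genes). The largest were Itih4, a further inter-alpha-inhibitor relative, at 5.40, Hrg, histidine-rich glycoprotein, at 5.10, and Saa4, a serum amyloid A protein, at 4.64. In the comparison of groups, 1 of 47 was higher (5.52% of all genes) and 1 lower (7.42% of all genes), so fewer passed than among all genes. Tat, the first enzyme of tyrosine breakdown and so a step before Hpd, read 6.71, 6.82, 7.02, 8.93, 9.35 and 9.16 and rose by 2.30 ± 0.14 (SE), with an adjusted p of 0.000318. Lect2, a liver cytokine, read 10.61, 10.59, 10.18, 6.67, 8.27 and 7.23 and fell by 3.07 ± 0.39, with an adjusted p of 0.00426. For both genes the groups did not overlap. Without control 3 and cKO 2, 7 of 47 passed, where 7.95% of all genes did: Tat and Serpina10 higher, and Lect2, C8g, Rgn, Hgd and Apom lower.

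With the mean of these other hepatocyte genes as a covariate, 10 members passed, where 14% of all genes did. Those were Ttr, Ambp, F9, C9 and Hpd, which were higher, and Afp, Serpina1c, F10, C8b and Cps1, which were lower, and the members' median change was -0.20. This adjustment uses genes that behave like the members, so it is not independent of them.

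Most blood cell, macrophage and endothelial markers were also higher on cKO 2. The 14 erythroid genes measured (of 19 listed) averaged 8.47, 7.13, 8.53, 6.99, 10.60 and 6.94, and 13 of 14 were at least 2-fold higher on cKO 2. The 12 myeloid and megakaryocyte genes averaged 8.38, 7.14, 7.69, 7.19, 10.33 and 6.93, with 12 of 12 at least 2-fold higher on cKO 2. Control 1 was about level with control 3 in the erythroid list and above it in the myeloid list, whereas it was below control 3 in the members. The 11 macrophage genes averaged 7.82, 7.41, 7.93, 7.35, 8.90 and 7.14, and the 10 endothelial genes 7.28, 7.09, 7.78, 7.23, 8.76 and 6.82, with 8 of 11 and 7 of 10 at least 2-fold higher on cKO 2. Marco and Clec4g differed on cKO 2 by 0.03 and 0.02. Csf1r, the receptor for the macrophage growth factor CSF1, read 10.26, 10.30, 10.60, 7.84, 9.12 and 7.54 and fell, with an adjusted p of 0.0148. Its level on cKO 2 was above those on cKO 1 and cKO 3 but below every control. No marker in any of these lists was at 0 on any array, and their part in the members' levels was not tested. In RNA of a bulk isolate, more cells of a type and more RNA per cell cannot be told apart.

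The lists of other tissues had another order. The 9 mesenchyme and muscle genes averaged 8.21, 7.77, 7.88, 9.49, 9.12 and 8.30, and the 8 pancreatic acinar genes measured (of 11) averaged 10.54, 9.02, 7.89, 10.37, 10.14 and 9.34, with their lowest mean on control 3. The gut epithelium genes were slightly lower on cKO 2, by a median of -0.15, and 0 of 12 were above the mean of cKO 1 and cKO 3.

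**Figure D4:**
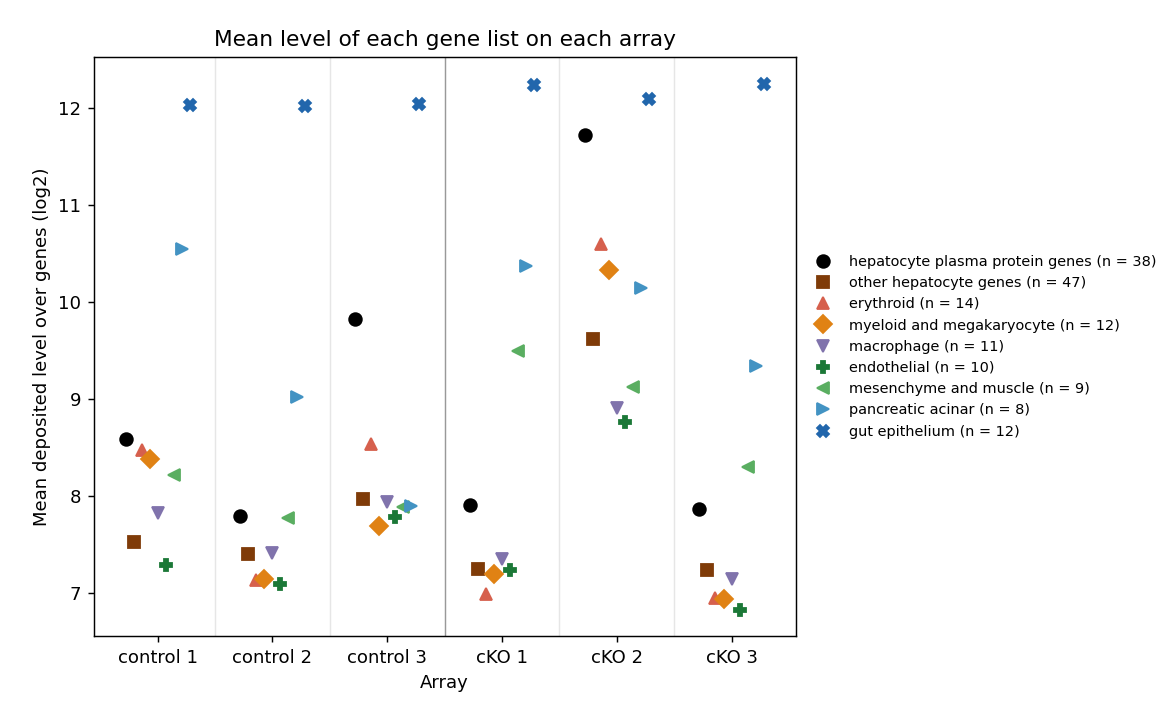
Mean deposited log2 level of each gene list (vertical axis) on each of the 6 arrays (horizontal axis), one symbol per list. The members, other hepatocyte, erythroid, myeloid, macrophage and endothelial lists are highest on cKO 2, while the gut epithelium genes lie between 12.02 and 12.25 on every array.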

How the data were processed

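The deposited values are 1 log2 level per probe set and array, made by the authors in dChip, as the series text says. No label states the log base, which was read from the values (0 to 14.25). Version, background correction and normalization of dChip are not stated in these sources. Neither scanner files nor detection calls were used, so low levels may be background. Probe sets annotated to 1 gene were kept (21789 of 35512), 1 per gene. Groups came from the source names. Changes were tested with two-sided moderated tests of limma 3.58.1 under R 4.3.3 (lmFit, eBayes), adjusted by Benjamini-Hochberg over 19938 genes at 0.05. The procedure was tested on simulated data. Alternatives were other scalings, filters and probe set rules, covariates, weights, a replicate block and left-out arrays. The members and lists were chosen with earlier results of these data known. Values on every array are printed for Alb, Afp, members that passed with all arrays or without control 3 and cKO 2, each role group's extremes of the cKO 2 difference and members not highest on cKO 2. Those for Gata4, Gata6, Aldh1l1, the shared Serpina1 sets and the fibrinogen genes were chosen after their values were seen. No 2 arrays held the same values, and at most 2.24% of probe sets were equal between any 2. The number of arrays limits the precision.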

Additional observations from a re-analysis of the deposited data

How the results depend on the processing

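The members passing the threshold, 3 of 38 with all arrays, numbered 5 under quantile normalization, arrays centred on their median, or log2(value + 32). They numbered 7 with the erythroid list as covariate, 9 without control 3 and cKO 2, and 10 with the other hepatocyte list as covariate. Leaving out each array in turn gave 2 to 8. Of all 19938 genes, 2580 passed with all arrays and 2317, 2391 and 2764 under those scalings in turn. With the erythroid covariate 2845 of all genes passed, and with the hepatocyte covariate 2794. The other hepatocyte genes passing, 2 of 47 with all arrays, numbered 1 among genes above the median level, where 2656 of 9964 genes passed. They numbered 9 with either covariate and 7 without the pair of arrays. With each array left out they numbered 2 to 7, the 7 being without cKO 2. The hepatocyte covariate is the mean of these same genes, so their count under it carries no weight of its own. The median change of the members, 0.55, was -0.20 with the hepatocyte covariate, -0.29 without the pair, and -0.84 to 1.25 with each array left out. The median difference of control 3 from control 2, 1.77, was 1.57 with log2(value + 32) and 1.99 for genes above the median level, and that of control 1, 0.49, was 0.42 with log2(value + 32). The median cKO 2 difference of 3.89 was run only under the other scalings, the filter and the probe set rule. Its lowest value there was 3.63, with log2(value + 32). Deviations from the group means were not positively correlated between arrays of the same replicate number (correlations of -0.0153, -0.425 and -0.184). Since single arrays stood apart within their groups, these correlations cannot show whether replicates were paired. A replicate block gave 2 members (Ambp and Cps1), 2 other hepatocyte genes and 1449 genes in all against 2580. All-gene counts with 1 array left out ran from 1482 to 2281, and 1586 without the pair. Centring changed the split of all calls to 848 higher and 1543 lower, against 1101 and 1479. The median change thus changed sign with the hepatocyte covariate, without the pair and without cKO 2. Across the alternatives the change of Afp ran from -1.89 to 0.03 and that of C8b from -2.04 to 0.75. The cause of these changes was not tested. Low signals may be compressed by background.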

Other observations

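Beyond the listed genes, the 10 with the largest cKO 2 difference that are in no list were Cp, Gm4788, Cldn1, Lcn2, Pzp, Cyp3a16, Cyp4a10, Ppbp, Kng2 and Hsd3b1, with differences of 5.40, 5.15, 5.13, 5.06, 4.97, 4.96, 4.71, 4.70, 4.65 and 4.47. Cp, the copper-carrying ceruloplasmin, read 6.73, 5.75, 8.15, 5.82, 11.13 and 5.65 in the order control 1 to 3 and cKO 1 to 3, and Pzp, an alpha-2-macroglobulin relative, read 8.77, 7.27, 10.74, 7.62, 12.88 and 8.20. Both were highest on cKO 2 and then control 3. Cldn1, a tight junction protein, read 10.19, 9.90, 10.53, 6.45, 11.62 and 6.54, so cKO 1 and cKO 3 lay below all controls, as for C8b and F10. Lcn2, a siderophore-binding protein of neutrophils, read 10.46, 7.02, 8.71, 7.58, 12.19 and 6.68, with control 1 above control 3. Ppbp, a platelet chemokine, read 7.84, 6.91, 7.86, 6.69, 11.32 and 6.55.

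Globin probe sets annotated to several copies had a smaller cKO 2 step than the erythroid genes with 1 copy: an alpha-globin set read 13.50, 13.16, 13.50, 13.23, 13.87 and 13.42, and a beta-globin set read 13.13, 12.77, 13.22, 12.67, 13.63 and 13.12. A probe set of Serpina1d alone read 6.86, 6.93, 7.46, 7.08, 9.52 and 6.93, again highest on cKO 2, with cKO 1 and cKO 3 level with the controls.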
